A study of Mus musculus with 48 samples.

Results

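Integrins are receptors through which macrophages hold on to other cells and to the matrix around them. The 10 subunit genes described here are the leukocyte integrins Itgal, Itgam, Itgax and Itgb2, the partners Itga4 and Itgb7, and the matrix-binding subunits Itga5, Itgav, Itgb3 and Itgb5. They were chosen by symbol. Each symbol had 1 probe set on the array, so they are 10 of the 19505 genes measured. RNA came from 48 cultures of mouse macrophages, 1 Affymetrix array per culture, in 16 groups of 3 arrays by cell type, addition and time. Kupffer cells, which are the macrophages resident in liver, were taken from livers of male Balbc mice with magnetic beads against F4/80. Monocytic macrophages came from blood monocytes of the same mice, sorted for CD115. All cultures had 1 day with MCSF, the growth factor that keeps macrophages alive in culture. They then had 3 days or 1 day with HGF (hepatocyte growth factor), with Ito cells (hepatic stellate cells, which store vitamin A), with CD146 cells (endothelial cells of the liver sinusoids), or with MCSF as the control. The controls are titled 1 day and 3 days but described as 2 and 4 days in MCSF; they were taken to count the first day and to match the additions, which the labels do not state. The labels name no genotype or transgene, give no age here, and leave unsaid if Ito or CD146 cells touched the macrophages or were still present at lysis. They also do not say whether MCSF stayed in the medium beside the additions. Titles call the 3 cultures of a group biological replicates without naming animals, so the p-values measure the spread between these cultures.

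An integrin is a pair of an alpha and a beta chain, and most alpha chains reach the cell surface only with their beta partner. Itgb2 pairs with Itgal to form LFA-1, which binds intercellular adhesion molecules, with Itgam to form Mac-1, the complement receptor of phagocytes, and with Itgax to form CD11c/CD18, another complement receptor that is also a marker of many dendritic cells and tissue macrophages. Itga4 pairs with Itgb1 or Itgb7 and binds Vcam1, Madcam1 and fibronectin. Itga5 with Itgb1 is the classical fibronectin receptor, and Itgav with Itgb3 or Itgb5 binds vitronectin and the bridging protein Mfge8, through which macrophages take up dying cells.

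Itgal, Itgam and Itgax all lie on mouse chromosome 7. Itgam and Itgax are direct neighbours there in the order of the RefSeq gene table. The promoter windows of these neighbours are shown because the pair went in opposite directions over time in monocytic macrophages. Both are on the plus strand of GRCm38.p6 and run from 250 bases before to 50 bases after the annotated start, per RefSeq: chr7:128062390-128062689 for Itgam and chr7:128129300-128129599 for Itgax. Capitals mark GAGGAA, the core of the site of PU.1 (a transcription factor of myeloid cells), or TGANTCA, the AP-1 site, on either strand.
Itgam: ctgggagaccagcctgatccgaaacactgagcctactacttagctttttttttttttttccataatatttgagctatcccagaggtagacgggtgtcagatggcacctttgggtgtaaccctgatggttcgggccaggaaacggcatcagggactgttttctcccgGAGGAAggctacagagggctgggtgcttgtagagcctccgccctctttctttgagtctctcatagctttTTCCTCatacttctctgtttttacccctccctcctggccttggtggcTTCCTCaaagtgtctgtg
Itgax: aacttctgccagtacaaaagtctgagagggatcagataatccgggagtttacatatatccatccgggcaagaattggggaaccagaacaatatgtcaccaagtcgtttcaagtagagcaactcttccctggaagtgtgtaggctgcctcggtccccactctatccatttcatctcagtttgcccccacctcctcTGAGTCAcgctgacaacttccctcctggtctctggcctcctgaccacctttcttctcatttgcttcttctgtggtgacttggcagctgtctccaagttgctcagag
GAGGAA occurs 3 times in the Itgam window and 0 times in the Itgax window. TGANTCA occurs 0 times in the Itgam window and 1 time in the Itgax window, 56 bases before the start. The motifs do not overlap here. Of 32851 promoter windows of the same length, 28.3% hold GAGGAA and 7.8% hold TGANTCA. These are matches of letters only. Promoter windows were found for 7 of the 10 members, and Itgal, Itgb2 and Itgb3 had none in the table. GAGGAA also occurs 2 times in the Itgav window and 1 time each in those of Itga5 and Itgb7. The windows of Itga4 and Itgb5 lack it. TGANTCA is absent from all of these other windows. The part of either motif in the time courses was not tested.

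Values are log2 signals, so a difference of 1 is a doubling. The means of the negative control probes lay between 5.07 and 6.15 per array and their 95th percentiles between 8.44 and 10.28. Below that percentile a signal is within the range of probes that match no transcript. A fold is a ratio of measured signals, and "at least" marks a bound with the mean of the negative controls as floor unless the 95th percentile is named. A second fit, added after seeing the data, raised every signal under its array's mean of the negative controls to that mean. Itgam, Itgb2 and Itga4 were above the 95th percentile of the negative controls on all 48 arrays. Itgb3 was under that percentile on 47 arrays, Itgal and Itgax on 41 each, Itgb7 on 40, Itgb5 on 25, Itga5 on 16 and Itgav on 2. Adgre1, which encodes F4/80, and Csf1r, which encodes CD115, were expressed in every group: the lowest group mean was 13.16 for Adgre1 and 14.97 for Csf1r. Cd163, another macrophage marker, stayed below the mean of the negative controls in every group. 3 arrays stand apart from their groups: replicate 1 of Kupffer cells in MCSF for 1 day, replicate 2 of Kupffer cells with HGF for 1 day, and replicate 3 of monocytic macrophages in MCSF for 3 days. A member passed where its limma adjusted p, over all 19505 genes of a comparison, was under 0.05.

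**Figure D1:**
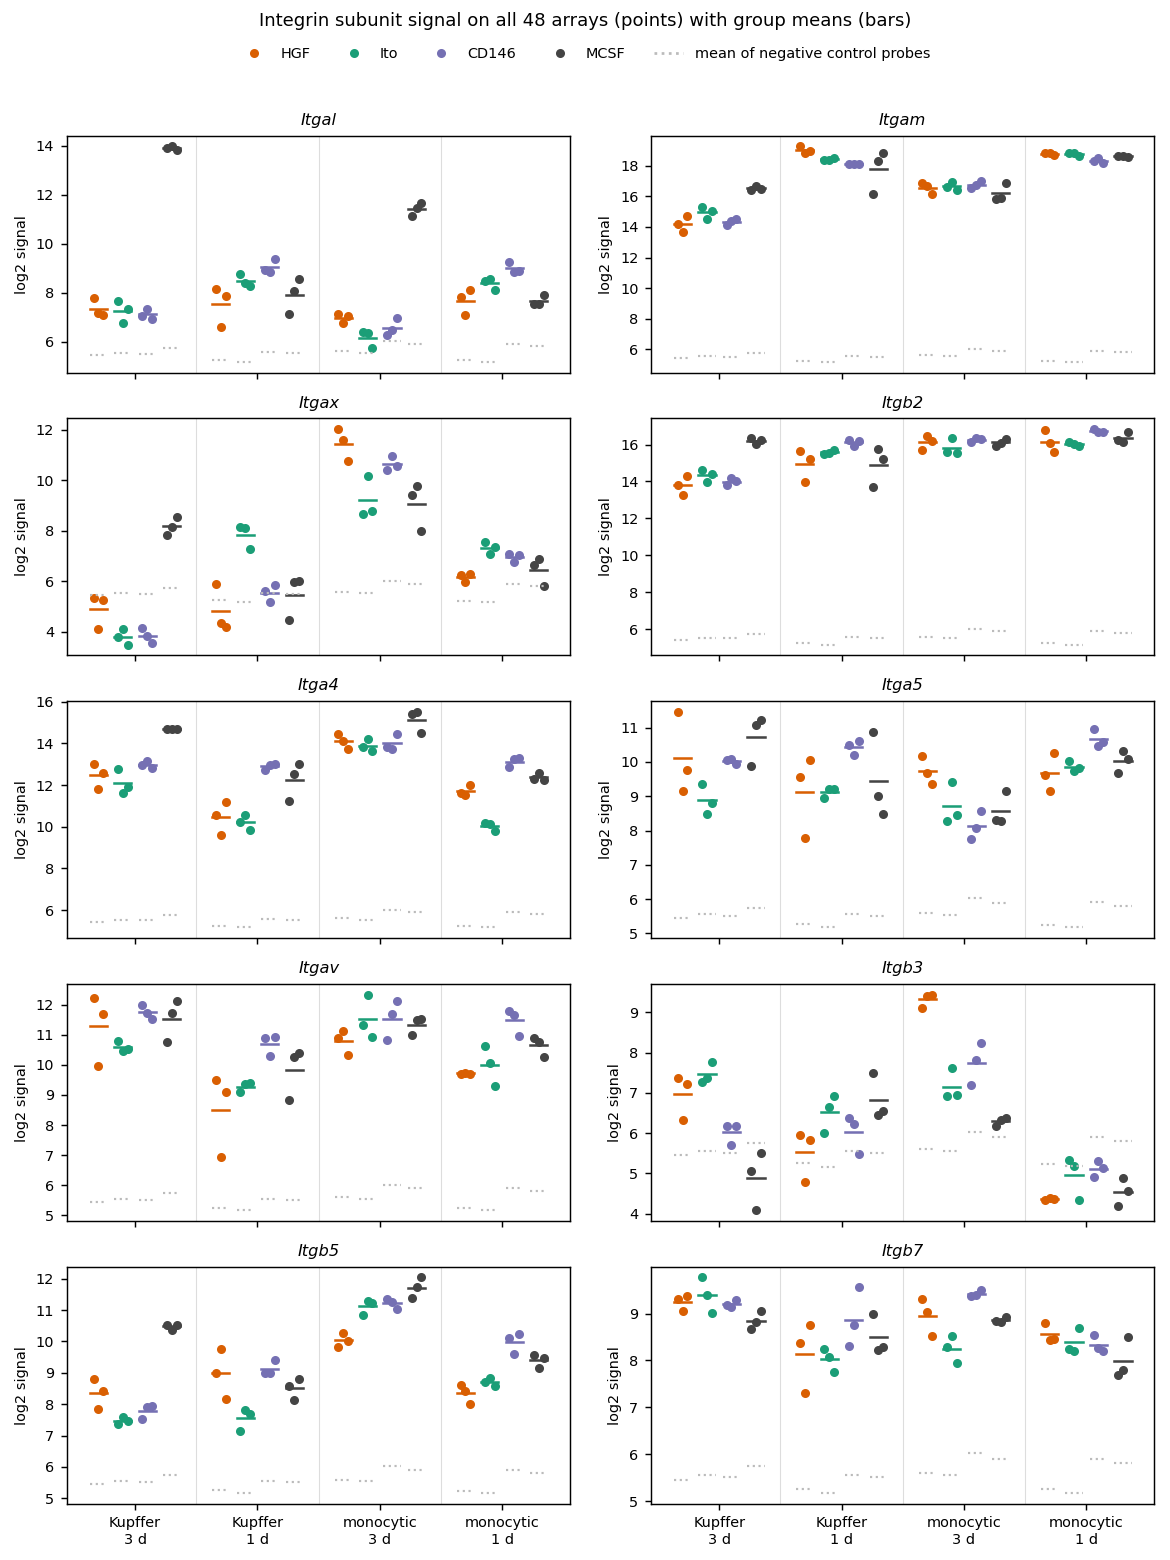
Log2 signal of each of the 10 integrin genes on each of the 48 arrays, 1 panel per gene, with 1 point per array, a bar at each group mean (n = 3) and dotted lines at the mean of the negative control probes. Itgal stands out in the MCSF groups of 3 days (group means 13.91 in Kupffer cells and 11.42 in monocytic macrophages), and Itgam is high in every group.

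The members differed widely in how far their group means spread. Itgal spanned 7.75 log2 units, more than 99.1% of all genes, and Itgax spanned 7.65, more than 99%. Itga4 spanned 5.09, Itgb3 4.95, Itgam 4.84, Itgb5 4.24, Itgav 3.24, Itgb2 2.94, Itga5 2.60 and Itgb7 1.43, which was more than 38.1% of all genes. These ranges describe the 16 groups and carry no test.

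The orders of the group means differed between the subunits. Itgal ran from 13.91 in Kupffer cells in MCSF for 3 days to 6.17 in monocytic macrophages with Ito cells for 3 days, and the 3 arrays of neighbouring groups in that order were free of overlap at 3 of 15 steps. Itgam was lowest at 14.19 in Kupffer cells with HGF for 3 days and highest at 19.04 in Kupffer cells with HGF for 1 day, with 6 of 15 steps free of overlap. The 8 groups of day 1 all had Itgam means above those of the 8 groups of day 3. Itgax was highest at 11.46 in monocytic macrophages with HGF for 3 days and lowest at 3.80 in Kupffer cells with Ito cells for 3 days (3 of 15 steps). Itgb2, the shared beta chain, was highest at 16.72 in monocytic macrophages with CD146 cells for 1 day, and its 3 lowest means were the Kupffer cells with HGF (13.79), CD146 cells (13.99) and Ito cells (14.34) for 3 days. Only 1 of 15 steps in the order of Itgb2 was free of overlap.

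Itga4, the partner of Itgb7 and Itgb1, ran from 15.13 in monocytic macrophages in MCSF for 3 days to 10.04 in monocytic macrophages with Ito cells for 1 day (3 of 15 steps). Itgb5, a vitronectin-binding beta chain, ran from 11.72 in monocytic macrophages in MCSF for 3 days to 7.48 in Kupffer cells with Ito cells for 3 days (5 of 15 steps). Itgb3 ran from 9.32 in monocytic macrophages with HGF for 3 days to 4.37 with HGF for 1 day (1 of 15 steps). Itgav lay between 11.75 in Kupffer cells with CD146 cells for 3 days and 8.51 in Kupffer cells with HGF for 1 day (1 of 15 steps). The fibronectin-binding chain Itga5 lay between 10.72 in Kupffer cells in MCSF for 3 days and 8.13 in monocytic macrophages with CD146 cells for 3 days, and Itgb7 between 9.42 and 7.99. No step in the order was free of overlap for Itga5 or for Itgb7.

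After 3 days, Kupffer cells with HGF, Ito cells or CD146 cells had less Itgal, Itgam, Itgax, Itgb2, Itga4 and Itgb5 than Kupffer cells in MCSF, and more Itgb3. The 3 additions were each set against the same 3 MCSF arrays. Itgal, the alpha chain of LFA-1, read 7.80, 7.16 and 7.10 with HGF, 7.65, 6.75 and 7.33 with Ito cells and 7.06, 7.35 and 6.92 with CD146 cells, against 13.90, 13.98 and 13.85 in MCSF. All 9 arrays with an addition lay within the range of the negative controls, and all MCSF arrays lay far above them. Itgal was 94.2-fold lower with HGF (adjusted p = 9.46e-20), 102-fold lower with Ito cells (adjusted p = 5.14e-20) and 112-fold lower with CD146 cells (adjusted p = 2.16e-20) as measured signals. With the 95th percentile of the negative controls as floor, it was at least 28.6-fold, 26.8-fold and 26.7-fold lower. These are bounds set by the floor, so the additions cannot be put in order. Fewer cells that express a gene and less RNA of it per cell cannot be told apart in these bulk samples.

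Itgam, the alpha chain of Mac-1, read 14.17, 13.70 and 14.72 with HGF, 15.31, 14.55 and 15.05 with Ito cells and 14.12, 14.39 and 14.52 with CD146 cells, against 16.43, 16.65 and 16.51 in MCSF. The groups with an addition did not overlap with MCSF. Itgam fell by 2.34 with HGF (5.06-fold, adjusted p = 6.28e-07), by 1.56 with Ito cells (2.95-fold, adjusted p = 0.000467) and by 2.19 with CD146 cells (4.56-fold, adjusted p = 2.24e-06), with a standard error of 0.35 for each difference. Itgb2, its beta chain, read 13.83, 13.25 and 14.28 with HGF, 14.61, 13.99 and 14.42 with Ito cells and 13.80, 14.17 and 14.00 with CD146 cells, against 16.34, 16.01 and 16.26 in MCSF. Every array with an addition was below every MCSF array. Itgb2 was 5.34-fold lower with HGF (adjusted p = 3.89e-07), 3.63-fold lower with Ito cells (adjusted p = 4.59e-05) and 4.64-fold lower with CD146 cells (adjusted p = 2.11e-06).

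Itgax, which encodes CD11c, read 5.34, 4.13 and 5.25 with HGF, 3.80, 4.12 and 3.5 with Ito cells and 4.15, 3.85 and 3.58 with CD146 cells, against 7.83, 8.17 and 8.56 in MCSF. The additions brought it under the mean of the negative controls, so the folds are bounds set by that mean: at least 6.66-fold lower with HGF (adjusted p = 8.75e-08), at least 6.23-fold with Ito cells (adjusted p = 1.3e-10) and at least 6.39-fold with CD146 cells (adjusted p = 1.36e-10). The MCSF arrays were themselves within the range of the negative controls for Itgax. Itga4 read 13.03, 11.80 and 12.60 with HGF, 12.76, 11.62 and 11.89 with Ito cells and 12.94, 13.15 and 12.83 with CD146 cells, against 14.67 on all 3 MCSF arrays. No array with an addition reached the MCSF level. Itga4 was 4.59-fold lower with HGF (adjusted p = 3.17e-06), 5.99-fold lower with Ito cells (adjusted p = 1.65e-07) and 3.24-fold lower with CD146 cells (adjusted p = 0.000195).

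Among the matrix-binding subunits, Itgb5 fell and Itgb3 rose. Itgb5 read 8.80, 7.85 and 8.42 with HGF, 7.38, 7.60 and 7.46 with Ito cells and 7.52, 7.92 and 7.93 with CD146 cells, against 10.54, 10.37 and 10.53 in MCSF. The additions and MCSF did not overlap. Itgb5 was 4.36-fold lower with HGF (adjusted p = 2.82e-08), 8.02-fold lower with Ito cells (adjusted p = 7.78e-12) and 6.45-fold lower with CD146 cells (adjusted p = 1.04e-10) as measured signals. All 9 arrays with an addition lay within the range of the negative controls, and with the 95th percentile as floor Itgb5 was at least 2.65-fold, 2.49-fold and 2.47-fold lower. Itgb3 read 7.37, 6.33 and 7.21 with HGF, 7.27, 7.38 and 7.77 with Ito cells and 6.19, 5.71 and 6.19 with CD146 cells, against 5.05, 4.09 and 5.50 in MCSF. All of these values lie within the range of the negative controls, but the groups did not overlap. Itgb3 was at least 2.33-fold higher with HGF (adjusted p = 4.55e-06), at least 3.3-fold higher with Ito cells (adjusted p = 8.15e-08) and at least 1.22-fold higher with CD146 cells (adjusted p = 0.00911). The CD146 call ended without MCSF replicate 2 (difference 0.75, adjusted p = 0.149) and with signals raised to the mean of the negative controls (0.28, adjusted p = 0.354). Itga5 was 3.58-fold lower with Ito cells (8.88 against 10.72, adjusted p = 0.00346). Its differences with HGF (-0.59, adjusted p = 0.441) and CD146 cells (-0.70, adjusted p = 0.356) did not pass. Itgav differed by -0.25, -0.94 and 0.22 and Itgb7 by 0.40, 0.55 and 0.35 with HGF, Ito cells and CD146 cells, and none of these passed.

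After 3 days 7 of 10 members passed with HGF (1 higher, 6 lower), beside 27.6% of all genes. With Ito cells 8 passed (1 higher, 7 lower), beside 26.8%, and with CD146 cells 7 passed (1 higher, 6 lower), beside 26.4%. The median difference of the 10 members was -2.16 with HGF, -1.85 with Ito cells and -1.94 with CD146 cells, against 0, 0.11 and 0.01 for all genes. Relative to the shift of 0.11 with Ito cells, Itgal changed by -6.78, Itgam by -1.67, Itgb2 by -1.97, Itgb5 by -3.12 and Itgb3 by 2.48. General macrophage markers moved the same way in these comparisons. Of 11 measured, 10 fell with HGF, 8 with Ito cells and 8 with CD146 cells, with median differences of -3.17, -2.25 and -3.76. Their mean level was 11.95 with HGF, 12.36 with Ito cells and 11.53 with CD146 cells, against 15.20 in MCSF. The hepatocyte and sinusoidal endothelial lists averaged higher with the additions, but not all of their markers passed. Of 10 hepatocyte markers 8, 8 and 3 were higher with HGF, Ito cells and CD146 cells, and 1 was lower with each. Of 12 endothelial markers 10, 4 and 5 were higher and 0 lower. All 12 endothelial markers were under the mean of the negative controls in MCSF, as were 6, 9 and 7 with the additions. The hepatocyte list of 10 genes averaged 8.10, 6.88 and 6.01 with HGF, Ito cells and CD146 cells, against 5.03 in MCSF, and the sinusoidal endothelial list of 12 genes averaged 6.22, 4.99 and 5.04 against 3.93. The Ito cell list of 12 genes averaged 7.87, 6.76 and 7.59, against 7.67 in MCSF, with 3 higher and 1 lower with HGF, 1 higher and 6 lower with Ito cells, and 2 higher and 3 lower with CD146 cells. Markers of T and NK cells, which also carry Itgal, averaged 5.42, 5.85 and 5.22 with the additions, against 5.35 in MCSF, and 7 of the 10 lay under the mean of the negative controls in MCSF. The part of these other cell types in the differences was not tested.

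**Figure D2:**
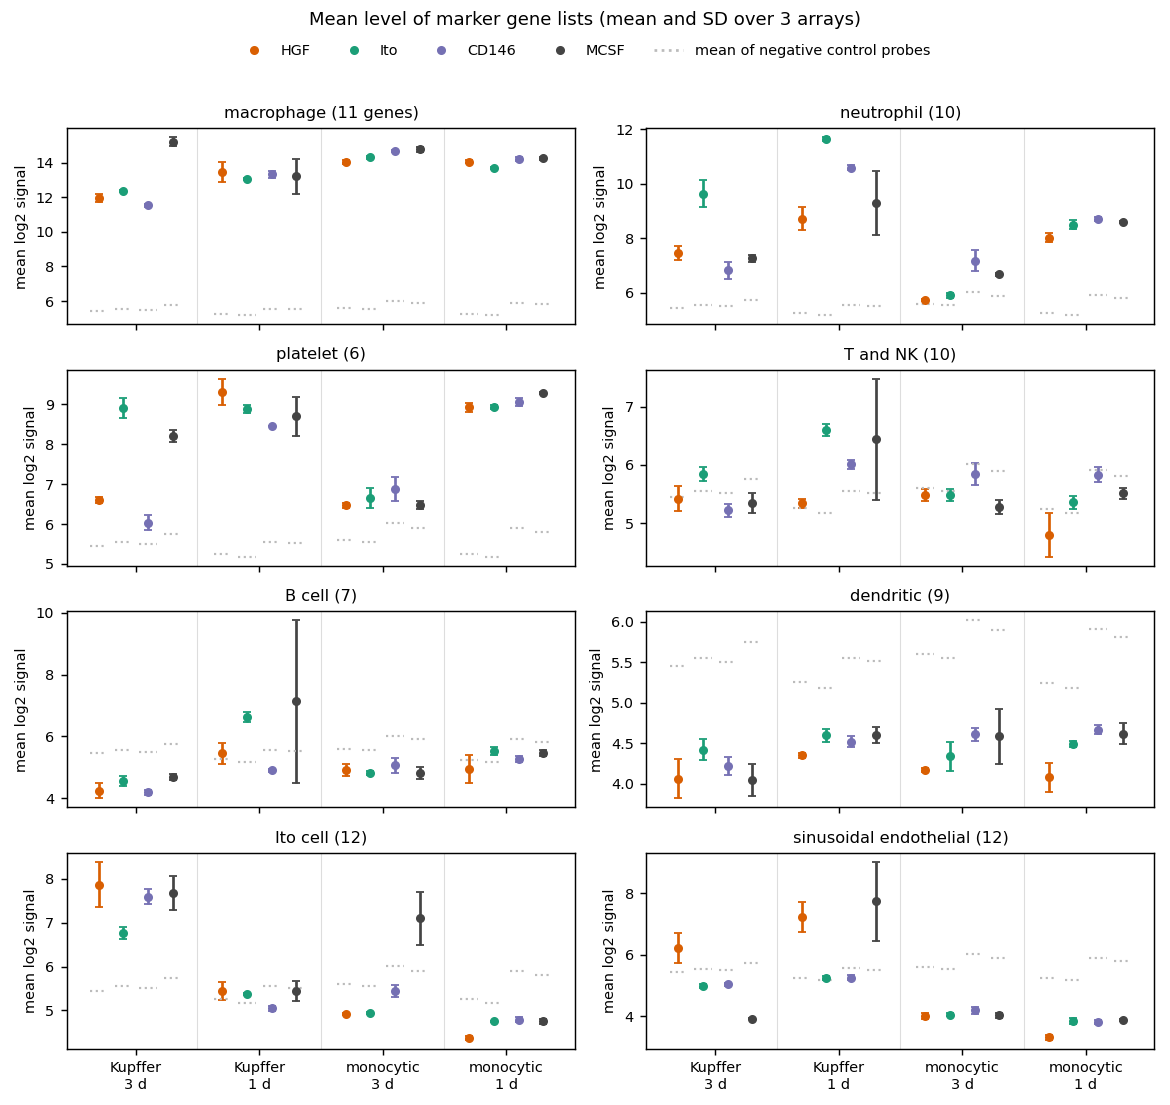
Mean log2 level of lists of marker genes for macrophages and for other cell types in the 16 groups, with a point at the mean and a bar for the SD of the 3 arrays; dotted lines mark the mean of the negative control probes. Macrophage markers average 11.53 to 12.36 in Kupffer cells with the 3 additions for 3 days, against 15.20 in Kupffer cells in MCSF for 3 days.

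After 1 day the same additions moved fewer members in Kupffer cells, and not in the same way. Itga4 fell with HGF and with Ito cells. It read 10.57, 9.59 and 11.18 with HGF, 10.22, 10.56 and 9.86 with Ito cells and 12.72, 12.98 and 12.99 with CD146 cells, against 11.22, 12.52 and 13.02 in MCSF. Every array with HGF or Ito cells was below every MCSF array, while CD146 cells overlapped with MCSF. Itga4 was 3.5-fold lower with HGF (-1.81, adjusted p = 0.000855) and 4.1-fold lower with Ito cells (-2.04, adjusted p = 4.72e-05). The median of all genes shifted by -0.17 with HGF and -0.24 with Ito cells, and relative to it Itga4 changed by -1.64 and -1.79. When only the 6 arrays compared were fitted, the HGF call of Itga4 ended (adjusted p = 0.547).

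Itgax read 8.17, 8.11 and 7.27 with Ito cells for 1 day, against 4.46, 5.97 and 6.0 in MCSF, without overlap. It was at least 4.1-fold higher (adjusted p = 0.000112), and its signals stayed within the range of the negative controls. Relative to the median of all genes it rose by 2.62. With HGF, Itgam read 19.27, 18.86 and 18.98 against 16.17, 18.29 and 18.82 in MCSF and was higher by 1.28, or 1.45 relative to the median of all genes (adjusted p = 0.01). That call ended without MCSF replicate 1 (0.48, adjusted p = 0.191), an array that stands apart. Itgb3 averaged 5.52 with HGF, against 6.83 in MCSF, and changed by -1.31, or -1.14 relative to that median (adjusted p = 0.00827), a call that ended without HGF replicate 2 or MCSF replicate 1 (adjusted p between 0.0544 and 0.121). Itgb5 averaged 7.55 with Ito cells, against 8.51, and changed by -0.96, or -0.72 relative to that median (adjusted p = 0.00839), a call that ended without Ito replicate 1 (-0.76, adjusted p = 0.0683), with quantile normalization, with median centring and with only its 6 arrays fitted (adjusted p 0.0875, 0.164 and 0.068).

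With CD146 cells for 1 day, Itgal read 8.93, 8.85 and 9.38, against 7.12, 8.07 and 8.57 in MCSF, and was 2.19-fold higher (adjusted p = 0.0321). Itgb2 read 16.23, 15.94 and 16.21, against 13.69, 15.74 and 15.22, and was 2.36-fold higher (adjusted p = 0.0321). Both groups were free of overlap, but the calls rest on single arrays. The Itgal call ended without CD146 replicate 1, 2 or 3 or MCSF replicate 1 or 2 (adjusted p between 0.0506 and 0.261). All of its arrays but CD146 replicate 3 lay within the range of the negative controls. The Itgb2 call ended without CD146 replicate 1, 2 or 3 or MCSF replicate 1 (adjusted p between 0.0631 and 0.364). In all, 3 members passed with HGF (1 higher, 2 lower) beside 17.5% of all genes, 3 with Ito cells (1 higher, 2 lower) beside 23.5%, and 2 with CD146 cells (both higher) beside 3.78%. Markers of other cells moved in these comparisons. With Ito cells for 1 day 12 of 12 sinusoidal endothelial markers and 7 of 10 hepatocyte markers were lower (1 hepatocyte marker was higher) and 8 of 10 neutrophil markers higher. The endothelial list averaged 5.24, the hepatocyte list 6.91 and the neutrophil list 11.65 with Ito cells, against 7.74, 8.18 and 9.29 in MCSF. With CD146 cells 11 of 12 endothelial markers were lower (5.26 against 7.74), and of the neutrophil markers 5 were higher and 1 lower (10.60 against 9.29). With HGF 6 of 10 T and NK markers, 4 of 7 B cell markers and 4 of 12 endothelial markers were lower. None of these was higher. With CD146 cells 5 of 7 B cell markers were lower and 0 higher. The B cell list averaged 5.46 with HGF and 4.9 with CD146 cells, against 7.13 in MCSF, where its SD was 2.62. The part of these cell types in the differences of the integrins was not tested.

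In monocytic macrophages after 3 days, Itgal was again much lower with every addition, while Itgam and Itgb2 did not pass with any. Itgal read 7.14, 6.75 and 7.06 with HGF, 6.40, 6.36 and 5.74 with Ito cells and 6.27, 6.48 and 6.97 with CD146 cells, against 11.13, 11.46 and 11.65 in MCSF. As in Kupffer cells, all arrays with an addition were within the range of the negative controls and far from MCSF. Itgal was 21.5-fold lower with HGF (adjusted p = 3.6e-13), 38.0-fold lower with Ito cells (adjusted p = 3.26e-15) and 28.6-fold lower with CD146 cells (adjusted p = 7.33e-14) as measured signals, or at least 4.39-fold, 4.65-fold and 2.3-fold with the 95th percentile as floor. Itgam differed by 0.38, 0.47 and 0.57 and Itgb2 by 0.01, -0.28 and 0.15 with HGF, Ito cells and CD146 cells.

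Itgax read 12.03, 11.59 and 10.75 with HGF, 8.68, 10.19 and 8.81 with Ito cells and 10.40, 10.98 and 10.59 with CD146 cells, against 9.42, 9.77 and 7.99 in MCSF. HGF and CD146 cells were free of overlap with MCSF and above the range of the negative controls. Ito cells overlapped with MCSF, and the MCSF arrays were within that range. Itgax was 5.27-fold higher with HGF (adjusted p = 0.000143) and 3.03-fold higher with CD146 cells (adjusted p = 0.0388), and did not pass with Ito cells (0.17, adjusted p = 0.897). The CD146 call ended without CD146 replicate 1, 2 or 3 or MCSF replicate 3 (adjusted p between 0.0634 and 0.294). Itgb3 read 9.12, 9.41 and 9.44 with HGF, 6.93, 7.61 and 6.94 with Ito cells and 7.20, 7.81 and 8.24 with CD146 cells, against 6.18, 6.34 and 6.38 in MCSF. All arrays with an addition were above the MCSF arrays, and all but 1 of these 12 arrays, an HGF array, were within the range of the negative controls. Itgb3 was 8.14-fold higher with HGF (adjusted p = 2.4e-08) and 2.74-fold higher with CD146 cells (adjusted p = 0.0115), and did not pass with Ito cells (0.86, adjusted p = 0.101). Without CD146 replicate 2 or 3 the CD146 call of Itgb3 ended (adjusted p 0.0521 and 0.116).

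Itgb5 read 9.83, 10.28 and 10.01 with HGF for 3 days, against 11.38, 11.73 and 12.04 in MCSF, without overlap, and was 3.19-fold lower (adjusted p = 2.12e-05). Itga4 read 14.46, 14.10 and 13.75 with HGF and 13.81, 14.22 and 13.63 with Ito cells, against 15.41, 15.51 and 14.49 in MCSF. Every array with HGF or Ito cells was below every MCSF array, MCSF replicate 3 by little. Itga4 was 2.04-fold lower with HGF (adjusted p = 0.0472) and 2.38-fold lower with Ito cells (adjusted p = 0.0134), and did not pass with CD146 cells (-1.12, adjusted p = 0.0902). The HGF call ended without HGF replicate 2 or 3 or MCSF replicate 1 or 2 (adjusted p between 0.0938 and 0.219), and the Ito call without Ito replicate 3 or MCSF replicate 1 or 2 (adjusted p between 0.0731 and 0.108). In all, 5 members passed with HGF (2 higher, 3 lower) beside 13% of all genes, 2 with Ito cells (both lower) beside 12.5%, and 3 with CD146 cells (2 higher, 1 lower) beside 2.4%. Macrophage markers averaged 14.03 with HGF, 14.29 with Ito cells and 14.65 with CD146 cells, against 14.76 in MCSF. Ito cell markers moved more: 9 of 12 were lower with HGF, 8 with Ito cells and 7 with CD146 cells, and none was higher. Their list averaged 4.92, 4.94 and 5.45 with the additions, against 7.10 in MCSF, and its part in the falls of Itgal, Itgb5 and Itga4 was not tested.

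After 1 day in monocytic macrophages, 1 member passed with each addition. Itga4 read 10.20, 10.13 and 9.79 with Ito cells, against 12.31, 12.57 and 12.23 in MCSF. The groups were far apart, and Itga4 was 5.03-fold lower (-2.33, adjusted p = 1.94e-05), or -2.05 relative to the median shift of all genes of -0.28. This was 1 member beside 15.5% of all genes. With CD146 cells Itgal read 9.25, 8.84 and 8.89, against 7.52, 7.54 and 7.92, without overlap, and was 2.53-fold higher (adjusted p = 0.0109), 1 member beside 2.33% of all genes. That call ended without CD146 replicate 1 or MCSF replicate 1 or 2 (adjusted p between 0.0614 and 0.0891). Its arrays all lay within the range of the negative controls. With HGF the median of all genes shifted by -0.55 and 37.5% of all genes passed. Itgb5 was the member that passed (-1.05, adjusted p = 0.00287). Relative to the shift its difference was -0.50, and with each array centred on its median or all arrays quantile-normalized it did not pass (adjusted p 0.377 and 0.363).

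**Figure D3:**
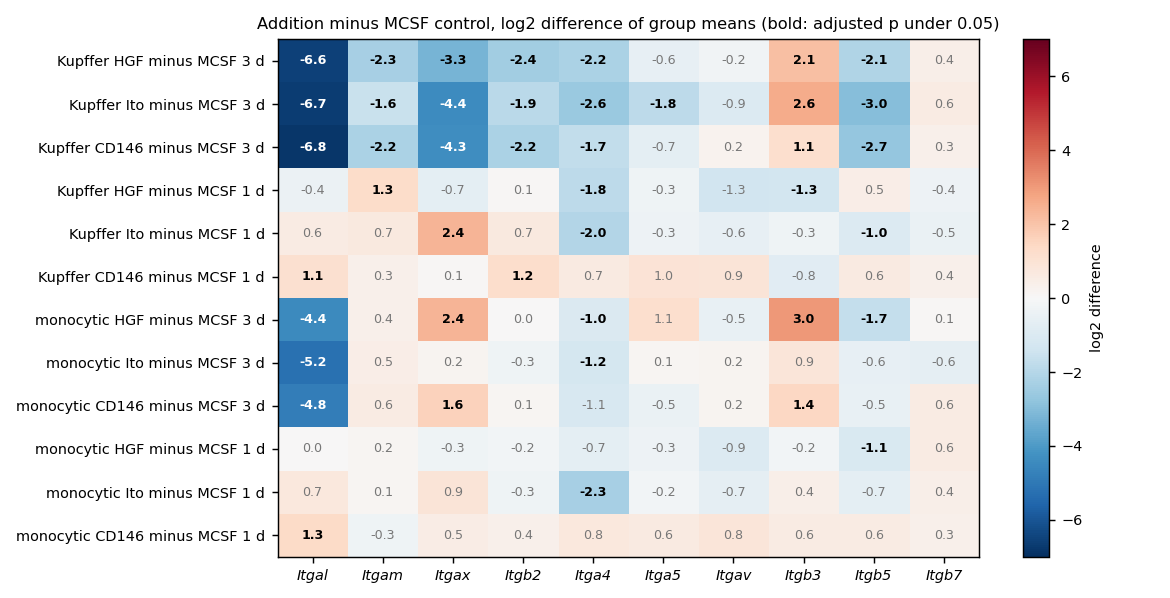
Log2 difference of each integrin gene between each addition and the MCSF control of the same cell type and day, as a heat map with the 12 comparisons in rows, the members in columns and differences past the threshold in bold. The deepest falls are those of Itgal after 3 days (-6.56 to -6.81 in Kupffer cells and -4.43 to -5.25 in monocytic macrophages).

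The 2 cell types differed in these responses. For each addition and day, the Kupffer difference from MCSF was set against the monocytic difference from MCSF in the same fit. At 3 days the response of Itgax was -3.28 in Kupffer cells and 2.40 in monocytic macrophages with HGF, -4.38 and 0.17 with Ito cells, and -4.33 and 1.60 with CD146 cells. The Kupffer response minus the monocytic response was -5.68 (adjusted p = 4.22e-09), -4.55 (adjusted p = 7.5e-07) and -5.93 (adjusted p = 7.58e-10). The Kupffer arrays with additions were under the mean of the negative controls. With signals raised to that mean the differences were -5.13 (adjusted p = 1.37e-09), -2.80 (adjusted p = 0.000131) and -4.27 (adjusted p = 3.24e-08). The MCSF arrays of both cell types were within the range of the negative controls for Itgax. So were the monocytic arrays with Ito cells, except replicate 2. Itgam responded with -2.34 in Kupffer cells and 0.38 in monocytic macrophages with HGF, and the difference of responses was -2.72 (adjusted p = 6.58e-05). With Ito cells it was -2.03 (adjusted p = 0.00382) and with CD146 cells -2.76 (adjusted p = 2.78e-05). For Itgb2 the differences of responses were -2.42 (adjusted p = 0.000349), -1.58 (adjusted p = 0.034) and -2.36 (adjusted p = 3e-04) with HGF, Ito cells and CD146 cells.

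Itgal fell in both cell types, but by more in Kupffer cells: the differences of responses were -2.13 with HGF (adjusted p = 0.000574), -1.42 with Ito cells (adjusted p = 0.0389) and -1.97 with CD146 cells (adjusted p = 0.000997), between signals that lay within the range of the negative controls wherever an addition was given. Itgb5 responded with -3.00 in Kupffer cells and -0.59 in monocytic macrophages to Ito cells, a difference of -2.41 (adjusted p = 1.23e-05). With CD146 cells the difference for Itgb5 was -2.19 (adjusted p = 2.13e-05). The Kupffer Itgb5 arrays with these additions lay within the range of the negative controls. For Itgb3 the difference with Ito cells was 1.73 (adjusted p = 0.0154), but the Kupffer MCSF arrays were under the mean of the negative controls. With signals raised to that mean it was 0.86 and did not pass (adjusted p = 0.224), and those with HGF (-1.81, adjusted p = 0.000803) and CD146 cells (-1.17, adjusted p = 0.0111) passed. As measured, it is a call that ended without Kupffer MCSF replicate 2 or Kupffer Ito replicate 3 (adjusted p 0.0958 and 0.052). The Ito differences of Itgal and Itgb2 ended without 9 and 7 of the 12 arrays involved, each left out in turn (adjusted p between 0.0569 and 0.148 and between 0.0515 and 0.129). After 3 days 4 members passed with HGF (all lower) beside 15.2% of all genes, 6 with Ito cells (1 higher, 5 lower) beside 8.75%, and 5 with CD146 cells (all lower) beside 18.2%. After 1 day Itgb5 was the 1 member that passed with HGF (1.52 higher in the Kupffer response, 1.17 relative to the median shift, adjusted p = 0.00381), beside 23.1% of all genes. Fitted on its 12 arrays alone, it did not pass (adjusted p = 0.101). With Ito cells 0 members passed after 1 day, beside 3.74% of all genes, and with CD146 cells 0, beside 0.877%. At an unadjusted limma p under 0.05, 3 members would have been counted with Ito cells and 1 with CD146 cells.

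Ito cells and CD146 cells were compared with each other in each cell type and day. The member that set them apart most clearly was Itga4 after 1 day. In Kupffer cells it read 10.22, 10.56 and 9.86 with Ito cells, against 12.72, 12.98 and 12.99 with CD146 cells, and was 6.42-fold lower (adjusted p = 3.05e-07). In monocytic macrophages it read 10.20, 10.13 and 9.79 with Ito cells, against 12.85, 13.26 and 13.28 with CD146 cells, and was 8.52-fold lower (adjusted p = 2.54e-08). The groups were more than 2 log2 units apart in both cell types. Itgb5 was lower with Ito cells as well, 3.01-fold in Kupffer cells (7.55 against 9.14, adjusted p = 2.74e-05) and 2.4-fold in monocytic macrophages (8.72 against 9.98, adjusted p = 0.000896). The median of all genes shifted by -0.27 in Kupffer cells and -0.30 in monocytic macrophages. Relative to it Itga4 changed by -2.41 and -2.79, and Itgb5 by -1.32 and -0.96. The monocytic Itgb5 call ended with quantile normalization (adjusted p = 0.0539).

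Itgax was at least 4.52-fold higher with Ito cells than with CD146 cells in Kupffer cells after 1 day (7.85 against 5.55, 2.57 relative to the shift, adjusted p = 0.000145). After 3 days in monocytic macrophages it was 2.7-fold lower (9.23 against 10.66, adjusted p = 0.0252), but that call ended without CD146 replicate 2 or 3 or Ito replicate 1 or 3 (adjusted p between 0.0609 and 0.16). Itgb7, the partner of Itga4, read 8.28, 8.52 and 7.95 with Ito cells for 3 days, against 9.38, 9.39 and 9.51 with CD146 cells, in monocytic macrophages. These groups did not overlap, and Itgb7 was 2.26-fold lower (adjusted p = 0.00368). All of these Itgb7 values were within the range of the negative controls. Itgb3 was 2.72-fold higher with Ito cells in Kupffer cells after 3 days (adjusted p = 0.00848), a call that ended without CD146 replicate 2 or Ito replicate 3 (adjusted p 0.0778 and 0.0747). Its signals were within the range of the negative controls in both groups. The list of 6 platelet markers averaged 8.91 with Ito cells, against 6.03 with CD146 cells, with 2 markers higher and 0 lower. The part of platelets in the Itgb3 difference was not tested.

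Smaller differences after 1 day were sensitive to single arrays and to the scaling of the arrays. In Kupffer cells Itgav differed by -1.43 (-1.16 relative to the shift, adjusted p = 0.0264), ending without CD146 replicate 1 or 3 or any Ito replicate, and Itga5 by -1.31 (-1.04 relative to it, adjusted p = 0.041), ending without any 1 of the 6 arrays. Itgb7 differed by -0.84 (-0.57 relative to it, adjusted p = 0.0246), ending without CD146 replicate 3 or Ito replicate 2 or 3. The adjusted p then lay between 0.0511 and 0.0831 for Itgav, 0.0622 and 0.108 for Itga5, and 0.0519 and 0.234 for Itgb7. In monocytic macrophages Itgav differed by -1.48 (-1.18 relative to the shift, adjusted p = 0.029), ending without CD146 replicate 1 or 2 or Ito replicate 2 or 3 (adjusted p between 0.0637 and 0.155). All of these calls also ended with median centring. Those of Itgb7 in Kupffer cells and of Itgav in monocytic macrophages ended with quantile normalization too. The counts were 1 of 10 members in Kupffer cells after 3 days (higher) beside 3.08% of all genes, and 6 after 1 day (1 higher, 5 lower) beside 27.4%. In monocytic macrophages 2 passed after 3 days (both lower) beside 11.3%, and 3 after 1 day (all lower) beside 19.8%.

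Kupffer cells and monocytic macrophages were then compared under the same addition and day. In MCSF for 3 days Itgam, Itgb2 and Itgax did not pass. The Kupffer level minus the monocytic level was 0.34 for Itgam (95% interval -0.34 to 1.02), 0.09 for Itgb2 (-0.59 to 0.78) and -0.87 for Itgax (-1.73 to -0.01, adjusted p = 0.24). Itgal was 5.65-fold higher in Kupffer cells (13.91 against 11.42 log2 units, adjusted p = 9.27e-08). Itga5 read 9.89, 11.07 and 11.21 in Kupffer cells, against 8.32, 8.27 and 9.16 in monocytic macrophages. These groups did not overlap, and Itga5 was 4.4-fold higher in Kupffer cells (adjusted p = 0.00157). Itgb5 was 2.35-fold lower in Kupffer cells (10.48 against 11.72, adjusted p = 0.000932), and Itgb3 at least 1.47-fold lower (adjusted p = 0.00291), which ended without Kupffer MCSF replicate 2 (-1.02, adjusted p = 0.0694) and with signals raised to the mean of the negative controls (-0.55, adjusted p = 0.151). These were 4 members (2 higher, 2 lower) beside 12.1% of all genes.

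With the additions for 3 days, the chains of Mac-1 and CD11c/CD18 were lower in Kupffer cells. Itgax read 5.34, 4.13 and 5.25 in Kupffer cells with HGF, against 12.03, 11.59 and 10.75 in monocytic macrophages, and was at least 64.3-fold lower (adjusted p = 3.24e-15). It was at least 12.8-fold lower with Ito cells (adjusted p = 1.7e-12) and at least 35.4-fold lower with CD146 cells (adjusted p = 1.41e-15). The Kupffer arrays were all under the monocytic arrays by several log2 units. With the 95th percentile of the negative controls as floor, Itgax was at least 5.22-fold lower with HGF, 1.04-fold with Ito cells and 2.79-fold with CD146 cells. Itgam was 5.2-fold lower in Kupffer cells with HGF (adjusted p = 1.06e-06), 3.23-fold with Ito cells (adjusted p = 0.000525) and 5.37-fold with CD146 cells (adjusted p = 3.53e-07). Itgb2 was 5.03-fold lower with HGF (adjusted p = 1.78e-06), 2.81-fold with Ito cells (adjusted p = 0.00261) and 4.82-fold with CD146 cells (adjusted p = 1.5e-06). With CD146 cells the median of all genes shifted by -0.12, and relative to it Itgax changed by -6.68, Itgam by -2.31 and Itgb2 by -2.15.

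Itga4 was 3.1-fold lower in Kupffer cells with HGF for 3 days (adjusted p = 0.000568) and 3.48-fold lower with Ito cells (adjusted p = 0.000312). With CD146 cells it changed by -1.04, or -0.92 relative to the shift (adjusted p = 0.0245), which ended without Kupffer CD146 replicate 1 or 3 or monocytic CD146 replicate 3 (adjusted p between 0.0652 and 0.152). Itgb5 read 7.38, 7.60 and 7.46 in Kupffer cells with Ito cells, against 10.85, 11.30 and 11.21 in monocytic macrophages, with no array between the groups. It was 12.5-fold lower in Kupffer cells with Ito cells (adjusted p = 1.17e-13), 10.8-fold lower with CD146 cells (adjusted p = 2.91e-13) and 3.22-fold lower with HGF (adjusted p = 6.23e-06). The Kupffer arrays were within the range of the negative controls, and with the 95th percentile as floor Itgb5 was at least 3.88-fold, 4.12-fold and 1.95-fold lower. Itgb3 was 5.12-fold lower in Kupffer cells with HGF (adjusted p = 1.07e-06) and 3.3-fold lower with CD146 cells (adjusted p = 0.000108). All of these Itgb3 arrays but monocytic HGF replicate 3 were within the range of the negative controls.

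Itga5 went the other way, 3.73-fold higher in Kupffer cells with CD146 cells for 3 days (10.03 against 8.13, adjusted p = 0.00242). With Ito cells, Itgal was 2.11-fold higher in Kupffer cells (adjusted p = 0.0227) and Itgb7 2.21-fold higher (adjusted p = 0.00504). The Itgal call ended without Kupffer Ito replicate 1 or 3 or monocytic Ito replicate 3 (adjusted p between 0.0792 and 0.167), and the Itgb7 call without Kupffer Ito replicate 1 (0.96, adjusted p = 0.0605). The Itgal call also ended with median centring. All Itgal arrays of these groups lay within the range of the negative controls. For Itgb7 the monocytic arrays and Kupffer Ito replicate 3 did. Altogether 6 members passed with HGF (all lower) beside 20% of all genes, 7 with Ito cells (2 higher, 5 lower) beside 8.81%, and 7 with CD146 cells (1 higher, 6 lower) beside 25.8%. The macrophage markers averaged 11.53 to 12.36 in Kupffer cells with additions for 3 days, against 14.03 to 14.65 in monocytic macrophages with additions, and their part in these differences was not tested.

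After 1 day fewer members passed between the cell types in MCSF, with Ito cells and with CD146 cells, while with HGF 6 passed on both days. Itgb3 was then higher in Kupffer cells in MCSF, with Ito cells and with HGF. In MCSF it read 7.50, 6.45 and 6.54 in Kupffer cells, against 4.20, 4.88 and 4.56 in monocytic macrophages. The groups did not overlap, though all values were within the range of the negative controls. Itgb3 was at least 2.03-fold higher in Kupffer cells in MCSF (adjusted p = 4.33e-06) and at least 2.51-fold higher with Ito cells (adjusted p = 0.00346). With HGF it was at least 1.21-fold higher (adjusted p = 0.00523). The call with Ito cells ended without monocytic Ito replicate 3 (1.26, adjusted p = 0.0686).

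Itgb2 was 2.76-fold lower in Kupffer cells in MCSF for 1 day (adjusted p = 0.00209) and Itgb5 1.86-fold lower (adjusted p = 0.0148). The Itgb2 call ended without Kupffer MCSF replicate 1 (-0.87, adjusted p = 0.0771), and the Itgb5 call without Kupffer MCSF replicate 2 or monocytic MCSF replicate 1 (adjusted p between 0.0673 and 0.0907). With Ito cells Itgb5 was 2.25-fold lower (adjusted p = 0.00667), ending without Kupffer Ito replicate 1 (-0.97, adjusted p = 0.0865). With CD146 cells Itgax was at least 2.47-fold lower (adjusted p = 0.0241) and Itgb5 differed by -0.84 (adjusted p = 0.0304). Both ended without Kupffer CD146 replicate 1 or 2 or monocytic CD146 replicate 1 or 3 (adjusted p between 0.0562 and 0.113 for Itgax, and 0.0995 and 0.142 for Itgb5). In MCSF 3 members passed (1 higher, 2 lower) beside 21.3% of all genes, with Ito cells 2 (1 higher, 1 lower) beside 3% and with CD146 cells 2 (both lower) beside 14.2%. In MCSF 12 of 12 sinusoidal endothelial markers and 8 of 10 hepatocyte markers were higher in Kupffer cells (1 hepatocyte marker was lower), and 6 of 11 macrophage markers lower. The endothelial list averaged 7.74 in Kupffer cells, against 3.88 in monocytic macrophages, the hepatocyte list 8.18 against 5.01 and the macrophage list 13.20 against 14.24. With HGF 12 of 12 endothelial markers were higher as well (7.23 against 3.32). Their part in the differences was not tested.

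With HGF for 1 day 53.8% of all genes passed between the cell types and the median of all genes shifted by 0.40. Of the members 6 passed (2 higher, 4 lower). Itgax was at least 1.58-fold lower in Kupffer cells (adjusted p = 0.00952), a call that ended with signals raised to the mean of the negative controls (-0.66, adjusted p = 0.292). Relative to the shift Itga4 differed by -1.66 (adjusted p = 0.00329), Itgb2 by -1.61 (adjusted p = 0.00402) and Itgav by -1.61 (adjusted p = 0.0364), all lower in Kupffer cells. Itgb3 was higher by 0.75 and Itgb5 by 0.23 relative to the shift (adjusted p 0.00523 and 0.046 for the unshifted differences), and with median centring neither passed (adjusted p 0.232 and 0.995). With quantile normalization Itgb3 did not pass (adjusted p = 0.292) and Itgb5 did. With the raised signals Itgav, Itgb3 and Itgb5 did not pass (adjusted p 0.133, 0.331 and 0.12). Kupffer HGF replicate 2, which stands apart, decided several of these. Without it Itgax, Itgb2, Itga4, Itgav and Itgb5 did not pass (adjusted p 0.0638, 0.0955, 0.0673, 0.502 and 0.492). The Itgax call also ended without Kupffer HGF replicate 3, the Itgav call without any monocytic HGF replicate, and the Itgb5 call without Kupffer HGF replicate 1 or monocytic HGF replicate 2 or 3 (adjusted p 0.0646 for Itgax, and no lower than 0.0673 for Itgav and 0.0711 for Itgb5).

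Between day 3 and day 1, Itgam fell in all 8 comparisons and Itga4 rose in 6. Itgam read 14.17, 13.70 and 14.72 in Kupffer cells with HGF on day 3, against 19.27, 18.86 and 18.98 on day 1, and was 28.7-fold lower (adjusted p = 3.9e-14). These groups were more than 4 log2 units apart. It changed by -3.46 with Ito cells (adjusted p = 2.05e-10), -3.77 with CD146 cells (adjusted p = 4.31e-11) and -1.23 in MCSF (adjusted p = 0.0053) in Kupffer cells. In monocytic macrophages it changed by -2.21 with HGF (adjusted p = 1.62e-06), -2.11 with Ito cells (adjusted p = 5.14e-06), -1.55 with CD146 cells (adjusted p = 0.000656) and -2.43 in MCSF (adjusted p = 5.48e-07). The Kupffer MCSF arrays overlapped between the days, and that call ended without replicate 2 or 3 of day 1 (adjusted p 0.0524 and 0.123).

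The median of all genes was higher on day 3 in every comparison. The shift was 0.30 with HGF, 0.51 with Ito cells, 0.16 with CD146 cells and 0.15 in MCSF in Kupffer cells, and 0.71, 0.44, 0.18 and 0.13 in monocytic macrophages. Relative to it Itgam changed by -5.15, -3.97, -3.93 and -1.37 in Kupffer cells and by -2.92, -2.55, -1.73 and -2.56 in monocytic macrophages, in the same order. Neutrophil markers, a cell type that also carries Itgam, were lower on day 3 as well: the mean of the 10 measured lay between 5.75 and 9.65 in the groups of day 3, against 8.03 to 11.65 in those of day 1. Their part in the difference was not tested.

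Itgax moved in opposite directions over time by cell type and addition. In monocytic macrophages with HGF it read 12.03, 11.59 and 10.75 on day 3, against 6.25, 5.99 and 6.29 on day 1, and was 38.9-fold higher (4.57 relative to the shift, adjusted p = 1.17e-12). The day 3 arrays rose well above the negative controls and the day 1 arrays were within their range. It was 12.8-fold higher with CD146 cells (3.5 relative to the shift, adjusted p = 1.95e-08), 6.07-fold higher in MCSF (2.47, adjusted p = 1.16e-05) and higher by 1.45 relative to the shift with Ito cells (adjusted p = 0.000708). In MCSF all arrays of both days lay within the range of the negative controls. With Ito cells all but replicate 2 of day 3 did. In Kupffer cells Itgax rose in MCSF, at least 5.17-fold (adjusted p = 4.48e-06), and was at least 4.94-fold lower on day 3 with Ito cells (adjusted p = 1.39e-09). With CD146 cells it differed by -1.86 relative to the shift (adjusted p = 0.0034), but both days were at or under the mean of the negative controls, so no fold is given, and with signals raised to that mean it did not pass (adjusted p = 0.745). With HGF it did not pass in Kupffer cells.

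Itgal rose over time in MCSF, and its measured signals fell with the added cells. In Kupffer cells in MCSF it read 13.90, 13.98 and 13.85 on day 3, against 7.12, 8.07 and 8.57 on day 1, and was 63.7-fold higher (adjusted p = 1.97e-18). In monocytic macrophages in MCSF it read 11.13, 11.46 and 11.65, against 7.52, 7.54 and 7.92, and was 13.5-fold higher (adjusted p = 2.7e-12). The days were free of overlap in both cell types, and the day 1 arrays lay within the range of the negative controls. With the 95th percentile as floor, Itgal was at least 24.9-fold higher in Kupffer cells and 3.5-fold higher in monocytic macrophages. In Kupffer cells in MCSF 8 of 11 macrophage markers were also higher on day 3 (list mean 15.20 against 13.20), while 12 of 12 sinusoidal endothelial markers (3.93 against 7.74) and 8 of 10 hepatocyte markers (5.03 against 8.18) were lower and 1 hepatocyte marker higher. Their part in the rise was not tested. Relative to the shift Itgal changed by -1.75 with Ito cells (adjusted p = 0.00159) and -2.11 with CD146 cells (adjusted p = 9.67e-06) in Kupffer cells, and by -2.65 (adjusted p = 4.8e-07) and -2.60 (adjusted p = 1.53e-07) in monocytic macrophages. These signals lay within the range of the negative controls on both days. The exception was replicate 3 of Kupffer cells with CD146 cells on day 1. With HGF Itgal did not pass (adjusted p 0.683 in Kupffer cells and 0.0606 in monocytic macrophages).

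Itgb2 changed over time in Kupffer cells and not, past the threshold, in monocytic macrophages, where it differed by -0.04 to -0.47. In Kupffer cells it was lower on day 3 with HGF (-1.16, adjusted p = 0.00672), Ito cells (-1.24, adjusted p = 0.00358) and CD146 cells (-2.14, adjusted p = 9.19e-06), or by -1.46, -1.75 and -2.30 relative to the shift. In MCSF it was higher by 1.32, or 1.17 relative to the shift (adjusted p = 0.00295), which ended without replicate 1 of day 1 (0.72, adjusted p = 0.104). The HGF call ended without replicate 1 of day 1 or replicate 2 of day 3 (adjusted p 0.0773 and 0.0597). Whether the time course of Itgb2 differs between the cell types was not tested.

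Itga4 rose with HGF, Ito cells and MCSF in both cell types. In monocytic macrophages with Ito cells it read 13.81, 14.22 and 13.63 on day 3, against 10.20, 10.13 and 9.79 on day 1, and was 14.4-fold higher (3.41 relative to the shift, adjusted p = 2.02e-11). The days were more than 3 log2 units apart. Relative to the shift it rose by 1.69 with HGF (adjusted p = 5.65e-07) and 2.63 in MCSF (adjusted p = 6.31e-08) in monocytic macrophages, and in Kupffer cells by 1.73 with HGF (adjusted p = 1.22e-05), 1.36 with Ito cells (adjusted p = 4.29e-05) and 2.27 in MCSF (adjusted p = 6.93e-07). With CD146 cells, where it was already high on day 1, the differences of 0.08 in Kupffer cells (adjusted p = 0.908) and 0.88 in monocytic macrophages (adjusted p = 0.0587) did not pass. Itgb7 rose in 4 of the 8 comparisons. Relative to the shift these were 0.86 in Kupffer cells with Ito cells (adjusted p = 0.000166), 0.80 with HGF (adjusted p = 0.00174), 0.90 in monocytic macrophages with CD146 cells (adjusted p = 0.00368) and 0.73 in MCSF (adjusted p = 0.0187). With median centring the Ito, CD146 and MCSF calls of Itgb7 ended (adjusted p 0.0506, 0.0575 and 0.153). The HGF call ended with quantile normalization (0.14, adjusted p = 0.728), with only its 6 arrays fitted (adjusted p = 0.102) and without replicate 2 of day 1 (0.69, adjusted p = 0.0571). The MCSF call also ended with quantile normalization (adjusted p = 0.0833) and without replicate 1 or 2 of day 1 (adjusted p 0.104 and 0.0808).

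Of the vitronectin receptors, Itgb3 rose in all 4 monocytic comparisons. With HGF it read 9.12, 9.41 and 9.44 on day 3, against 4.35, 4.40 and 4.37 on day 1, and was at least 16.9-fold higher (adjusted p = 8.46e-15). The replicates lay close together on both days, and day 1 was under the mean of the negative controls. Itgb3 was under the 95th percentile of those controls on 47 of 48 arrays. The exception was replicate 3 of monocytic macrophages with HGF on day 3. The bounds given here take the mean as floor and not that percentile. Itgb3 was at least 3.89-fold higher with Ito cells (adjusted p = 2.16e-06), at least 3.6-fold with CD146 cells (adjusted p = 1.29e-07) and at least 1.41-fold in MCSF (adjusted p = 0.000105), which did not pass with signals raised to the mean of the negative controls (0.49, adjusted p = 0.281). In Kupffer cells Itgb3 was at least 2.12-fold lower on day 3 in MCSF (adjusted p = 1.73e-05) and higher with HGF by 1.14 relative to the shift (adjusted p = 0.000719, and 0.0524 with only the arrays compared). With Ito cells it was higher by 0.43 relative to the shift (adjusted p = 0.022 for 0.94 unshifted), a call that ended with quantile normalization and with median centring (0.32 and 0.30, adjusted p 0.566 with each), and without replicate 1 of day 1 or replicate 3 of day 3 (adjusted p 0.142 and 0.0902).

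Itgb5 rose in all 4 monocytic comparisons as well, by 0.98 with HGF (adjusted p = 2.18e-06), 1.97 with Ito cells (adjusted p = 2.63e-09), 1.06 with CD146 cells (adjusted p = 0.000505) and 2.18 in MCSF (adjusted p = 7.87e-09) relative to the shift. In Kupffer cells it changed by 1.83 in MCSF (adjusted p = 1.89e-07) and by -1.51 with CD146 cells (adjusted p = 0.000198). Itgav rose in 4 comparisons. It read 12.22, 9.95 and 11.68 in Kupffer cells with HGF on day 3, against 9.50, 6.93 and 9.10 on day 1, and was higher by 2.47 relative to the shift (adjusted p = 1.47e-05). These groups did not overlap, although replicate 2 was low on both days. The other rises of Itgav were 0.80 with Ito cells (adjusted p = 0.0257) and 1.56 in MCSF (adjusted p = 0.00625) in Kupffer cells and 1.09 with Ito cells (adjusted p = 0.0114) in monocytic macrophages. They ended without replicate 1 of either day, without replicate 1 of day 1 or 3 of day 3, and without replicate 3 of day 1 or 2 of day 3 (adjusted p between 0.0527 and 0.0935). The Ito calls also ended with median centring (adjusted p 0.339 in Kupffer cells and 0.176 in monocytic macrophages), the Kupffer one with quantile normalization (adjusted p = 0.111), and the MCSF call with only its 6 arrays fitted (adjusted p = 0.0508).

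Itga5 fell in monocytic macrophages with CD146 cells, where it read 7.74, 8.07 and 8.57 on day 3, against 10.97, 10.47 and 10.59 on day 1 (-2.73 relative to the shift, adjusted p = 0.000101), without overlap. In MCSF it changed by -1.58 relative to the shift in monocytic macrophages (adjusted p = 0.0216) and by 1.12 in Kupffer cells (adjusted p = 0.0433). The MCSF calls ended without replicate 2 or 3 of day 1 in either cell type, without replicate 1 or 2 of day 3 in monocytic macrophages, and without replicate 2 or 3 of day 3 in Kupffer cells (adjusted p between 0.0532 and 0.0863 in monocytic macrophages and between 0.147 and 0.276 in Kupffer cells). In Kupffer cells 6 members passed over time with HGF (4 higher, 2 lower) beside 42.7% of all genes, 8 with Ito cells (4 higher, 4 lower) beside 48.6%, 5 with CD146 cells (all lower) beside 24.6%, and 9 in MCSF (7 higher, 2 lower) beside 31.8%. In monocytic macrophages 5 passed with HGF (4 higher, 1 lower) beside 60.6%, 7 with Ito cells (5 higher, 2 lower) beside 41.5%, 7 with CD146 cells (4 higher, 3 lower) beside 27.2%, and 8 in MCSF (6 higher, 2 lower) beside 29.3%.

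**Figure D4:**
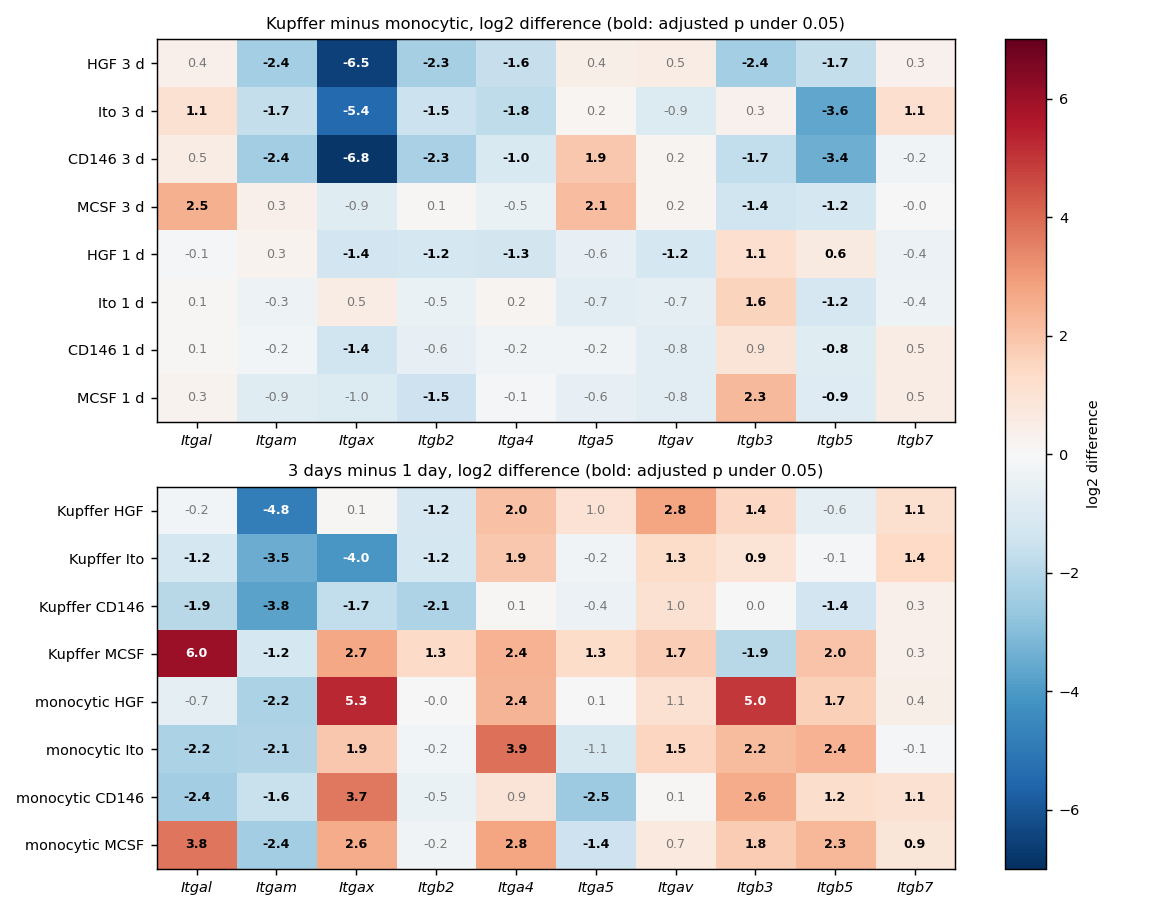
Log2 difference of each integrin gene between Kupffer cells and monocytic macrophages (8 comparisons) and between day 3 and day 1 (8 comparisons), as 2 heat maps with comparisons in rows, members in columns and differences past the threshold in bold. Itgam is lower on day 3 in all 8 comparisons, and Itgax is lower in Kupffer cells with each addition for 3 days (-5.42 to -6.80).

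The partners and ligands of these receptors were read from 3 lists: 14 other integrin subunits, 17 ligands and 24 proteins that activate integrins or link them to actin. In Kupffer cells with HGF for 3 days, 4 other integrins were higher and 2 lower, 7 ligands higher and 5 lower, and 9 linking proteins higher and 5 lower, beside 27.6% of all genes. Itga2, a collagen receptor chain, averaged 10.41 with HGF, against 4.18 in MCSF (adjusted p = 1.64e-16), and the laminin receptor chain Itga3 averaged 10.01 against 5.26 (adjusted p = 9.22e-13). Cdh1, the epithelial cadherin that Itgae with Itgb7 binds, averaged 12.23 against 4.06 (adjusted p = 1.64e-18). Icam1, the ligand of LFA-1 and Mac-1, was lower, at 10.59 against 14.15 (adjusted p = 1.19e-07). Itga2, Itga3 and Cdh1 were under the mean of the negative controls in MCSF. Of 10 hepatocyte markers 8 were higher with HGF and 1 lower, with list means of 8.1 against 5.03. The part of other cell types in the differences of these lists was not tested, here or with Ito cells and CD146 cells.

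With Ito cells for 3 days, 4 other integrins were higher and 3 lower in Kupffer cells, 6 ligands higher and 6 lower, and 4 linking proteins higher and 3 lower, beside 26.8% of all genes. Cdh1 averaged 8.96 with Ito cells, against 4.06 in MCSF (adjusted p = 5.98e-12). Itgb1, the beta chain of Itga4 and Itga5, averaged 14.31 with Ito cells, against 15.54 in MCSF (adjusted p = 0.000174). Icam1 averaged 8.84 against 14.15 (adjusted p = 1.13e-11) and fibronectin, Fn1, 10.46 against 15.50 (adjusted p = 2.37e-06). Fermt3, the kindlin of blood cells that switches on beta chains, averaged 11.24 against 12.65 (adjusted p = 0.000898). With CD146 cells for 3 days 5 other integrins were higher and 3 lower, 3 ligands higher and 5 lower, and 10 linking proteins higher and 4 lower, beside 26.4% of all genes. Cdh1 averaged 10.64 with CD146 cells, against 4.06 in MCSF (adjusted p = 1.18e-15), Itga2 8.88 against 4.18 (adjusted p = 5.28e-13) and Itga3 8.88 against 5.26 (adjusted p = 9.11e-10). There Itgb1 averaged 14.20 (adjusted p = 4.31e-05) and Icam1 10.49 (adjusted p = 6.85e-08), against the same MCSF arrays.

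In monocytic macrophages with HGF for 3 days, 2 other integrins were higher and 1 lower, 1 ligand higher and 2 lower, and 4 linking proteins higher and 2 lower, beside 13% of all genes. Thbs1, thrombospondin, which Itgav with Itgb3 binds, averaged 7.77 with HGF, against 14.83 in MCSF (adjusted p = 1.92e-09). Itgb1 averaged 15.52 against 14.70 (adjusted p = 0.0236), and Tln1, the talin that activates integrins from inside the cell, 16.79 against 15.96 (adjusted p = 0.0071). With Ito cells 0 other integrins, 2 ligands (both lower) and 5 linking proteins (3 higher, 2 lower) passed, beside 12.5% of all genes. With CD146 cells 0 of the 3 lists' genes passed, beside 2.4%. At an unadjusted limma p under 0.05 these CD146 counts were 1 other integrin, 2 ligands and 4 linking proteins, and the count of other integrins with Ito cells was 0.

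Over time, Mfge8, a ligand of Itgav with Itgb3 or Itgb5, had large rises in monocytic macrophages. It averaged 14.30 on day 3, against 5.97 on day 1, with HGF (adjusted p = 4.46e-20), 13.85 against 6.19 with Ito cells (adjusted p = 3.76e-19), 14.58 against 8.21 with CD146 cells (adjusted p = 2.04e-16) and 13.65 against 6.99 in MCSF (adjusted p = 5.64e-17). Itgb3 and Itgb5 rose in the same 4 comparisons. Icam1 in Kupffer cells in MCSF averaged 14.15 on day 3, against 8.88 on day 1 (adjusted p = 1.51e-11), beside the rise of Itgal there. Itga9 was lower on day 3 in all 8 comparisons. The difference lay between -1.96 and -3.18 in the 5 where it was above the mean of the negative controls, and it was at least 6.48-fold lower with HGF, 5.47-fold with Ito cells and 5.99-fold with CD146 cells in Kupffer cells, where day 3 was under it. Itga6, a laminin receptor chain, was lower in Kupffer cells than in monocytic macrophages in all 8 comparisons of cell type.

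Across the 16 group means the alpha chains followed their beta chains to different degrees. Pearson's r with Itgb2 was 0.67 for Itgax, 0.64 for Itgam and 0.33 for Itgal. Among the alpha chains of Itgb2, r was 0.13 between Itgam and Itgax and 0.06 between Itgal and Itgam. Itga4 and Itgb7 had r = 0.47, Itgav and Itgb5 r = 0.50 and Itgav and Itgb3 r = 0.20. The highest values were 0.81 for Itga4 with Itgav, and 0.75 both for Itga4 with Itgb5 and for Itgax with Itgb5. Itgam and Itgb7 had r = -0.79. These are descriptions over 16 points that share arrays, cell preparations and days, and they carry no test.

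By the same measure, the genes whose group means were most like those of each member were named among 10717 genes above background. They were Nfkb2 (0.904), Ebi3 and Adgre4 for Itgal, Mmp9 (0.944), Cacna1d and Gpr35 for Itgam, Tgoln1 (0.899), Tspan17 and Iqsec1 for Itgax, and Atp7a (0.929), Pld1 and Sel1l3 for Itgb2. For Itga4 they were Nlrp1b (0.965), R3hdm2 and Gtf2i, for Itga5 Fhl3 (0.821), Pgm3 and Tgfbi, and for Itgav Asb8 (0.927), Opa1 and Htt. For Itgb3 they were Plk2 (0.935), Serpinb1a and Atf3, for Itgb5 Tgfbr1 (0.954), Galc and Tmem37, and for Itgb7 Pacsin3 (0.872), Brd2 and Uhrf2.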

How the data were processed

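Total RNA of 48 cultures, 16 groups of 3, was labelled as biotinylated cRNA and hybridised to Affymetrix mouse arrays, 1 per culture, per the labels' protocols. Each file holds the log2 signal of every probe set as the authors deposited it, made with RMA and the Transcriptome Analysis Console per the submitters' processing notes. Their versions, and whether all arrays were normalized together, are not given in the sources used here. All log2 values entered the fits as deposited, with no further scaling. Arrays have no read depth, so their number and the 5222 negative control probe sets limit the precision. Of 28846 probe sets, 6640 controls and 2634 without a symbol were set aside. Of several probe sets of a gene, which 55 genes had, that with the highest mean was used, leaving 19505 genes.

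One mean per group was fitted to all 48 arrays with limma 3.58.1 in R 4.3.3 (lmFit and eBayes), with the package data.table, version 1.17.8. Each of 38 comparisons, in 5 families, had two-sided tests, a Benjamini-Hochberg adjustment across the 19505 genes and a threshold of 0.05. Where 1 group was under the mean of the negative controls, that mean took the place of its lower values and the fold is a bound. Same-numbered replicates deviated together no more than others (mean correlation -0.0178 against 0.0101 over 32 pairs of groups), and replicates were not treated as pairs. The fit was also run on simulated data, but no outcome of that run is given here, so it lends the results no weight. Promoter letters were searched with Python 3.11.15 and pandas 2.3.3, and figures drawn with matplotlib 3.10.9.

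The members and lists were chosen with earlier results of these data known. All 10 members are named, as are the 3 genes most like each member. Pathway genes are taken from the 4 with the smallest adjusted p per list and comparison, and which of these are printed was decided for length. The alternatives were quantile normalization, median centring, array weights, a filter on dim genes, a trended and robust variance model, a replicate block, only the arrays compared, the mean of a gene's probe sets, a 2-fold minimum, leaving out arrays and, added after seeing the data, raising low signals to the mean of the negative controls.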

Additional observations from a re-analysis of the deposited data

Results flagged for a closer look

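Differences between the Kupffer and the monocytic response to the same addition, tested as interactions in limma, passed for the members below. Values are the Kupffer response minus the monocytic response on the log2 scale. After 3 days Itgax differed by -5.68 with HGF, -4.55 with Ito cells and -5.93 with CD146 cells, or by -5.13, -2.80 and -4.27 with signals raised to the mean of the negative controls. Itgam differed by -2.72, -2.03 and -2.76 and Itgb2 by -2.42, -1.58 and -2.36 with the same additions. Itgal, which fell in both cell types, differed by -2.13, -1.42 and -1.97. Itgb5 differed by -2.41 with Ito cells and -2.19 with CD146 cells, and Itgb3 by 1.73 with Ito cells, which was 0.86 and did not pass with the raised signals (adjusted p = 0.224). Kupffer signals of Itgax, Itgal and Itgb5 with additions for 3 days lay within the range of the negative controls. So did the MCSF signals of Itgax and the monocytic signals of Itgal with additions. After 1 day Itgb5 differed by 1.52 with HGF, where the median of all genes was shifted by 0.36. The 3 differences with HGF, with Ito cells or with CD146 cells share the MCSF arrays of both cell types. Kupffer cells with additions for 3 days also had lower macrophage markers than those in MCSF, and the part of this in the differences was not tested.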

How the results depend on the processing

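Of the 163 of 380 tests of members that passed, 107 did so under every alternative other than the 2-fold minimum, and 56 were lost under at least 1. Between Ito and CD146 cells, 12 tests passed, against 22 with array weights and 20 with only the arrays compared fitted. For the other families, the counts stayed within 1.5 times the main count: additions 43 (64 with array weights), cell types 37, days 55 and responses 16 (23 with array weights). Leaving out 1 array in turn gave 41 to 45, 32 to 38, 53 to 57 and 14 to 18 for these families and 9 to 12 for Ito against CD146 cells. 2 results changed sign: Itga5 in Kupffer cells with HGF for 1 day was 0.87 with array weights (adjusted p = 0.0371), against -0.32, and the cause was not tested. Itgb3 in monocytic macrophages with Ito cells for 1 day was -0.61 with signals raised to the mean of the negative controls (adjusted p = 0.0474), against 0.41. With signals so raised, an alternative chosen after seeing the data, 49 additions, 33 cell type, 55 day, 13 Ito against CD146 and 17 response tests passed. Here 9 calls ended, 12 were gained with the same sign, and the Itgb3 result that changed sign passed as well. With the replicate block, 42 additions, 36 cell type, 55 day, 12 Ito against CD146 and 16 response tests passed. It ended the calls of Itga4 in monocytic macrophages with HGF for 3 days and of Itgb5 between the cell types with HGF for 1 day, and ended no other call. Without the 3 arrays that stand apart, 48, 39, 60, 15 and 20 passed in the same order. In monocytic macrophages with HGF for 1 day, Itgb5 was lost with quantile normalization or median centring, and its Kupffer minus monocytic response for HGF at 1 day with only the arrays compared (adjusted p = 0.101). The share of all genes past the threshold moved by over 1.5 times with array weights in 23 of 38 comparisons, with only the arrays compared in 21, with quantile normalization in 8, with median centring in 6, without the dimmest 25% of genes in 3, without the 3 arrays in 12, with raised signals in 25, with the 2-fold minimum in 17, and in 35 of 264 fits without 1 array. For HGF in Kupffer cells for 1 day limma called 0 genes when fitted on those 6 arrays alone, against 3421; 1753 had an unadjusted p under 0.05. Signals of Itgal, Itgax, Itgb3, Itgb5 and Itgb7 within the range of the negative controls limit what folds can show.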
